A study of Mus musculus with 4 samples.

Results

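Sst-positive inhibitory neurons were examined in sections of neonatal mouse brain measured by MERFISH, an imaging assay in which single RNA molecules of a preset gene panel are read by barcode and counted within each cell. The cells were chosen by counts alone. A cell was kept if it held at least 20 gene counts, and it was taken as Sst-positive if it also held at least 10 counts of Sst, at least 3 of Gad1 and at most 2 of Slc1a3, the gene of an astrocyte glutamate transporter. This gave 15645 of 794833 kept cells. They were compared with 51148 other GABA neurons, which held at least 10 counts of Gad1, fewer than 3 of Sst and at most 2 of Slc1a3. The 4 coverslips came from mice at postnatal day 5, whose whiskers had been lesioned on the right side of the snout at postnatal day 4, 24 hours earlier. Coverslips 1 and 2 were labelled male and coverslips 3 and 4 female. Each carried a coronal section, cut at 10 µm, from 1 wild-type mouse and a second from 1 Cx3cl1(-/-) mouse, which lacks the chemokine fractalkine in every cell. All groups below therefore share the lesion and hold both genotypes, though the 2 gates drew unequally on the 2 sections of a coverslip. No column says which section or cell is of which genotype, hemisphere or brain region, and none of these was assigned. The labels name the tissue barrel cortex, while the sections held whole coronal profiles with territory rich in Slc17a6-positive cells as well. A coverslip was the replicate (n = 4), and its 2 sections came from different mice.

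Somatostatin, the product of Sst, is a secreted peptide that dampens the release of other transmitters and hormones. In the forebrain it is carried by GABA neurons, which make their transmitter with the enzymes encoded by Gad1 and Gad2. Sst-expressing interneurons of the cortex mostly target the dendrites of other neurons. Sst RNA is also known from GABA neurons of the hippocampus, the striatum and the thalamic reticular nucleus. Cortical Sst neurons and Pvalb neurons arise in the same embryonic territory, the medial ganglionic eminence, and in the adult cortex they are largely separate classes.

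The median kept cell held 161, 162, 185 and 273 gene counts on coverslips 1 to 4. Blank barcodes, which match no probe and count false decoding, made up 1.16% to 1.45% of the counts of kept cells. The 4 coverslips thus differed in depth, and coverslip 4 was the deepest. For this reason levels between coverslips are given per 1000 counts of the genes tested, and levels per cell are set against the blanks.

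The gate held 2705, 3137, 3558 and 6245 Sst-positive cells on coverslips 1 to 4. This was 1.57%, 1.62%, 1.84% and 2.65% of the kept cells. The share was higher on both female coverslips than on both male ones, but an exact two-sided permutation test of 2 against 2 coverslips gave p = 0.33, the smallest value that design allows. The other GABA neurons followed no such order (mean 7.02% female, 5.56% male, exact p = 0.667). Among the 8 sections the Sst-positive share ran from 1.49% to 2.69%. A raw count minimum keeps more cells where depth is higher, and depth and sex cannot be told apart over these coverslips.

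The Sst counts of the chosen cells, which set the gate, ranged widely above the minimum. Their median Sst count was 30, 25, 27 and 34 on coverslips 1 to 4, and on coverslip 1 the lower and upper deciles were 12 and 95 counts. Of the 15645 cells, 4989 held 10 to 19 Sst counts. The median Gad1 count was 11, 11, 12 and 19. Gad2, which the rule did not use, was detected in 91.7% to 97.3% of the cells of a coverslip. Before the limits on Gad1 and Slc1a3, 4082, 4408, 4808 and 7858 cells had reached 10 Sst counts. Too little Gad1 removed 1123, 975, 856 and 752 of them, and Slc1a3 alone removed 254, 296, 394 and 861. Just outside the Sst minimum, at 7 to 9 counts, lay 458, 632, 667 and 932 cells with the same Gad1 and Slc1a3 limits, and just inside, at 10 to 12 counts, lay 314, 436, 457 and 657. Mean Gad1 was 15.5 per cell just outside and 16.9 just inside, and mean Cux2 was 3.07 and 3.28. The minimum thus cut through a continuous range of cells. Cells that should lack Sst held little of it. Cells with at least 10 Slc1a3 counts and fewer than 3 of Gad1 held 0.252 ± 0.0348 Sst counts per cell (SD, n = 4), and 0.266% of them reached 10 Sst counts. Cells with at least 5 counts of Csf1r, a microglial receptor, and fewer than 3 of Gad1 held 0.229 ± 0.0377 per cell, and 0.275% of them reached 10.

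The Sst-positive cells were not spread evenly over the tissue. Among the 30 cells nearest to an Sst-positive cell, a mean of 2.26, 2.98, 3.23 and 4.52 were themselves Sst-positive on coverslips 1 to 4. An even spread over the kept cells would give 0.472, 0.486, 0.552 and 0.795, and around the other GABA neurons the mean was 0.654, 0.767, 0.845 and 0.978. On the other hand, 32.1%, 29.0%, 27.0% and 19.4% of the Sst-positive cells had no Sst-positive cell among their 30 nearest. The map of cells showed dense groups. To describe them, an Sst-positive cell was called packed when at least 6 of its 30 nearest cells were Sst-positive, and dispersed otherwise. The limit was chosen after the map had been seen, so packed cells are described and not tested. They numbered 312, 601, 723 and 1684, which was 11.5%, 19.2%, 20.3% and 27.0% of the Sst-positive cells, and 3320 in all. The share ran from 11.3% to 34.4% over the 8 sections. At the limit itself, with 5 or 6 Sst-positive neighbours, lay 88, 232, 228 and 326 cells.

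**Figure D1:**
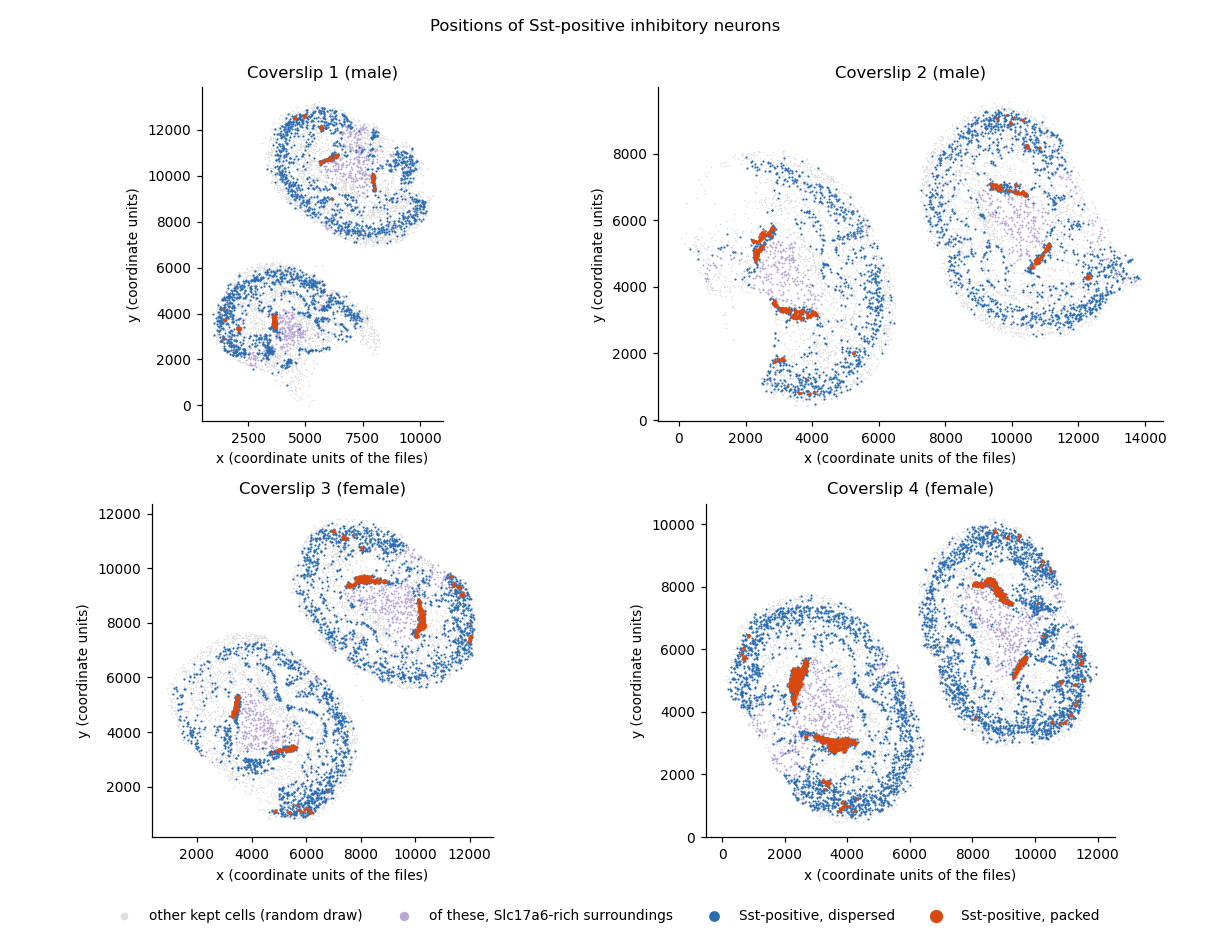
Positions of the Sst-positive cells on the 4 coverslips, with x and y in the coordinate units of the files, whose physical unit is not given. Blue points are dispersed and orange points packed Sst-positive cells (3320 of 15645). Grey points are a random draw of 6000 other kept cells per coverslip, and violet points are those of the draw with Slc17a6-rich surroundings. The packed cells form elongated bands that lie beside the violet territory.

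The packed cells lay mostly in elongated bands beside territory rich in Slc17a6, the gene of a vesicular glutamate transporter that marks thalamic and other subcortical excitatory neurons. Smaller packed groups lay near the rim of the sections. The median distance from a packed cell to the nearest cell with Slc17a6-rich surroundings (defined below) was 156 ± 25.2 coordinate units, against 329 ± 52.5 for dispersed cells (SD, n = 4). Packed cells held less Sst but more Gad1 than dispersed ones. Their median Sst count was 24.3 ± 3.95 against 30.5 ± 4.04, and their median Gad1 count was 24.3 ± 10.5 against 12 ± 2.71. Mean Gad2 was 13.7 ± 4.68 per cell against 8.39 ± 2.71. Gene totals differed less (median 414 ± 88.6 against 386 ± 79.6 counts).

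Pvalb, the gene of the calcium-binding protein parvalbumin, separated the packed from the dispersed cells most. Packed cells held 2.75, 4.30, 5.34 and 8.62 Pvalb counts per 1000 tested counts on coverslips 1 to 4, and dispersed cells held 0.372, 0.865, 0.652 and 0.628. The packed values were all above the dispersed ones, with a mean log2 difference of 3.00 that ran from 2.31 to 3.78 over coverslips, and the direction was the same in 8 of 8 sections. After each cell had been thinned to 200 tested counts, 51.4% ± 13.0 of the packed cells still held a Pvalb count, against 8.51% ± 2.43 of the dispersed cells and 6.48% ± 1.29 of the Slc1a3-positive cells named above, which should lack it. Without thinning the shares were 60.5%, 12.2% and 7.48%, at median depths of 342, 319 and 207 tested counts. Thinning left out shallower cells and kept 2628 packed, 9409 dispersed and 32908 Slc1a3-positive cells. The dispersed share thus lay close to the level of cells of another type. Neighbours that belonged to neither gate also held more Pvalb around packed cells than around dispersed ones (log2 3.04).

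Over the panel, 0.735% of the 136 tested genes (Pvalb alone) were higher and 4.41% (6 genes) were lower in packed cells by at least 1.5-fold on 4 of 4 coverslips, among genes above every blank. The 6 lower genes were Sox2, Tcf4, Fosl2, Wnt7a, Cx3cl1 and Cux2. Sox2, the gene of a transcription factor of progenitors, glia and some neurons, stood at 2.51 ± 0.297 per 1000 in packed and 11.4 ± 0.570 in dispersed cells. Tcf4, which encodes a helix-loop-helix transcription factor, stood at 0.582 ± 0.0977 against 2.57 ± 0.212. Both were more than 4-fold lower in packed cells on the mean over coverslips (4.54-fold and 4.45-fold). In the neighbours of neither gate Tcf4 was lower as well (log2 -1.44), whereas Sox2 was not (log2 0.31). Fosl2, which encodes a subunit of the AP-1 transcription factor, was 1.54 ± 0.423 against 4.85 ± 0.638. The Wnt ligand gene Wnt7a was 1.37 ± 0.233 against 3.81 ± 0.466, and Cux2, a transcription factor gene of upper cortical layers, was 6.61 ± 0.902 against 12.7 ± 1.89. Cx3cl1 itself stood at 8.37 ± 3.81 against 19.8 ± 2.48, but packed cells were unevenly divided between the sections of a coverslip. Within sections its log2 difference ran from -1.28 to -0.33, lower in packed cells in 8 of 8. On each coverslip, however, 1 section held very little Cx3cl1, at 0.363 to 0.550 per 1000 in packed and 0.619 to 0.852 in dispersed cells. The direction in those sections rests on very low levels. In the other section of each coverslip it stood at 13.0 to 17.0 in packed and 28.0 to 40.8 in dispersed cells. As lists, the 19 Wnt receptors and co-receptors had a median log2 difference of 0.01 and the 10 glypicans and syndecans one of 0.29, against 0.01 over all tested genes, and their members went both ways. The frizzled receptor gene Fzd3 was 10.1 ± 0.504 in packed and 6.05 ± 0.396 in dispersed cells, and Fzd7 was 1.65 ± 0.384 and 0.553 ± 0.0908, though Fzd7 did not clear the blanks on every coverslip. The syndecan gene Sdc1 was 2.80 ± 0.213 and 1.60 ± 0.157. The glypican gene Gpc6 was 7.88 ± 2.00 and 4.70 ± 0.309, and Gpc5 was 4.20 ± 1.55 and 2.50 ± 0.150. Gpc4 ran the other way, at 1.28 ± 0.256 in packed and 2.05 ± 0.237 in dispersed cells and lower on 4 of 4 coverslips, and Fzd1 was at 0.674 and 1.27, lower on 4 of 4 as well, both without clearing the blanks. Fzd3, Fzd7, Sdc1, Gpc6 and Gpc5 were higher in packed cells on 4 of 4 coverslips, by a factor that fell below 1.5 on at least 1 coverslip for Fzd3, Sdc1, Gpc6 and Gpc5. The summed level of the 3 precursor-cell markers Pdgfra, Cspg4 and Sox10 was 4.48 to 5.72 per 1000 in packed cells and 3.15 to 3.91 in dispersed ones. Astrocyte markers ran the other way, at 5.82 to 6.92 in packed and 6.53 to 7.80 in dispersed cells. Microglial markers (4.98 to 5.37 and 4.84 to 5.58) and endothelial and mural markers (2.31 to 3.43 and 2.27 to 3.25) overlapped between packed and dispersed cells. The part of other cells in these differences was not tested.

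**Figure D2:**
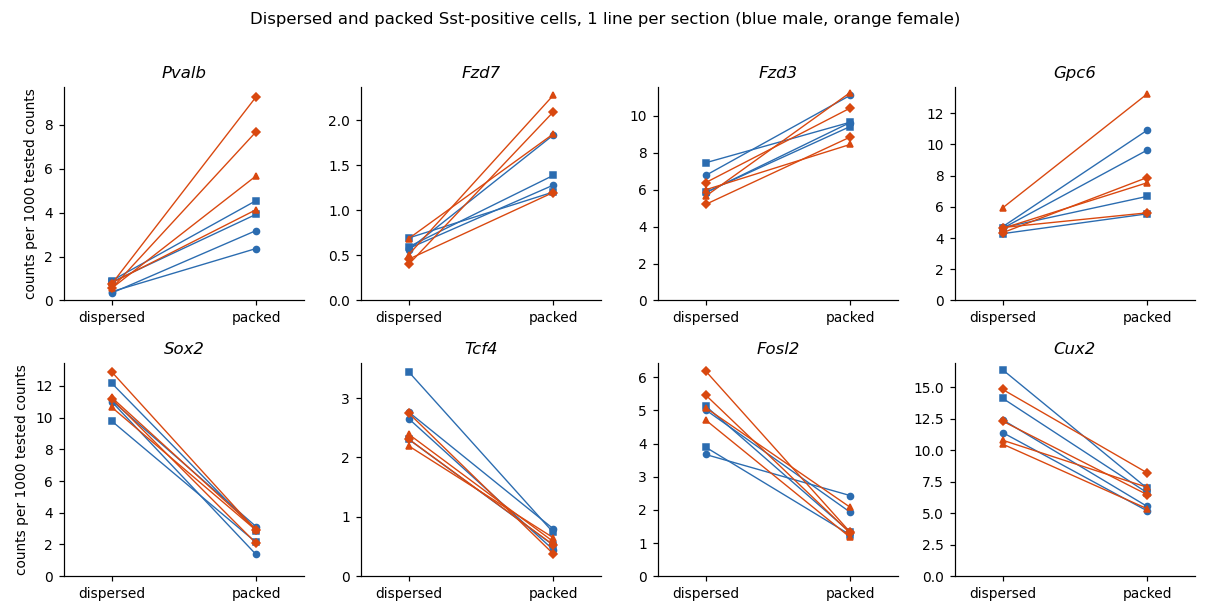
Levels of 8 genes in dispersed and packed Sst-positive cells, in counts per 1000 counts of the tested genes on the y axis, with 1 line for each of the 8 sections (blue from male, orange from female coverslips; marker shapes mark the coverslip). Pvalb, Fzd7, Fzd3 and Gpc6 rise and Sox2, Tcf4, Fosl2 and Cux2 fall from dispersed to packed in all 8 sections.

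Surroundings were then classed from the 30 nearest kept cells, the cell itself left out. These were counted by markers of 4 kinds, and a class was given when 1 kind held at least 6 of the 30 and more than the others. Cux2-rich surroundings hold cells with at least 5 Cux2 counts, as in upper cortical layers. Deep-layer-rich ones hold cells with at least 5 counts of Syt6, or of Bcl11b with fewer than 3 of Gad1. Striatal-rich ones hold cells with at least 5 counts of both Bcl11b and Gad1, and Slc17a6-rich ones hold cells with at least 5 Slc17a6 counts. The names describe these counts and not anatomy. Of all Sst-positive cells, 29.2% ± 1.87 had deep-layer-rich, 12% ± 7.47 Cux2-rich, 6.26% ± 2.05 striatal-rich and 3.59% ± 1.10 Slc17a6-rich surroundings, and 49.0% ± 8.69 fell in no class. The other GABA neurons were divided differently, with 17.2% ± 1.60 in deep-layer-rich and 14.1% ± 4.95 in striatal-rich surroundings. The neighbours that set the striatal-rich class can themselves be other GABA neurons.

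Per 1000 kept cells of a class, Sst-positive cells numbered 20, 18.0, 19.3 and 27.3 in deep-layer-rich surroundings on coverslips 1 to 4. In striatal-rich surroundings they numbered 22.2, 26.1, 29.8 and 31.3, where the other GABA neurons numbered between 174 and 245 per 1000. That class is set by neighbours with Gad1 and Bcl11b counts, and other GABA neurons can be such neighbours. Their high number there thus follows in part from the definition. In Slc17a6-rich surroundings Sst-positive cells numbered 6.95, 3.54, 5.62 and 7.53, below the other named classes on every coverslip. Cux2-rich surroundings varied most, with 7.04, 10.3, 14.0 and 33.7. The classes and the Sst gate both rest on raw count minimums, and coverslip 4 was the deepest. The part of depth in this spread was not tested. Packed cells made up 2.07%, 4.29%, 29.3% and 43.2% of the Sst-positive cells in the Cux2-rich class, and 40.6%, 35.1%, 13.3% and 15.8% in the striatal-rich class. Both classes therefore held different mixtures of cells on different coverslips, and the comparisons between classes are given below with and without packed cells.

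**Figure D3:**
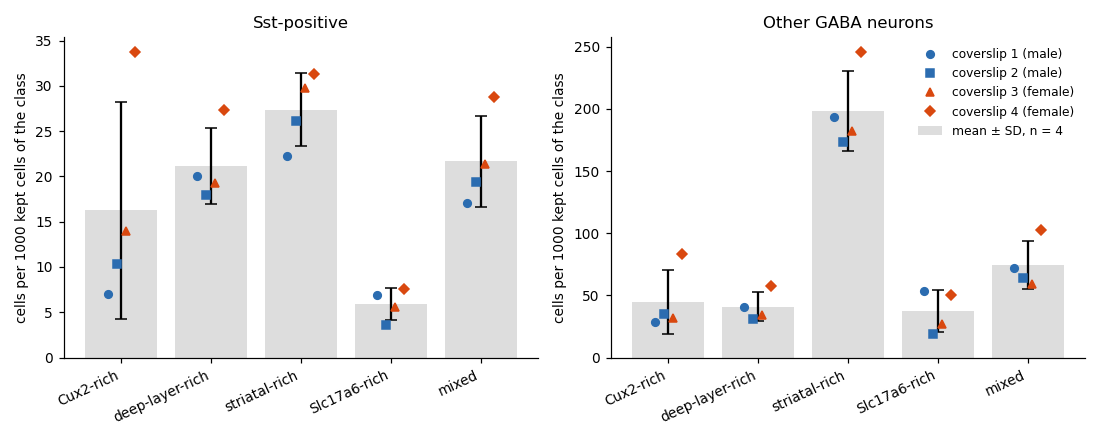
Sst-positive cells (left) and other GABA neurons (right) per 1000 kept cells of each class of surroundings on the y axis. Bars are means over the 4 coverslips with SD, and points are coverslips (blue male, orange female). Sst-positive cells run from 3.54 to 7.53 in Slc17a6-rich and from 22.2 to 31.3 in striatal-rich surroundings, while other GABA neurons reach 174 to 245 in the latter. That class is set by neighbours with Gad1 and Bcl11b counts, so this high number follows in part from its definition.

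Compared with the other GABA neurons, Sst-positive cells held more Cx3cr1 and Sfrp2 and less Aldoc and Bcl11b. Each gene was tested on counts summed per coverslip with the quasi-likelihood method of edgeR, against a difference of 1.5-fold, and was called at a Benjamini-Hochberg adjusted p under 0.05 if its level per cell lay above all 40 blanks on every coverslip. Of the 136 genes, 1.47% (2 genes) were called higher and 1.47% (2 genes) lower, 2.94% in all. Over the whole panel the median log2 difference was 0.01. Sst, Gad1, Gad2 and Slc1a3 set the gates or follow them and were not tested.

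Aldoc, which encodes the glycolytic enzyme aldolase C, was at 0.785, 0.745, 1.16 and 2.04 counts per Sst-positive cell on coverslips 1 to 4 and at 1.64, 1.66, 2.09 and 3.32 per other GABA neuron. It was lower in the Sst-positive cells of each coverslip, with a log2 difference of -0.89 ± 0.06 (SE) and an adjusted p of 0.0021 from edgeR. Bcl11b, a transcription factor gene of striatal and deep-layer projection neurons, was at 2.20, 2.03, 2.75 and 3.39 counts per Sst-positive cell and at 4.09, 3.36, 4.74 and 5.43 per other GABA neuron (log2 -0.72 ± 0.03, edgeR adjusted p = 0.0021). Its direction, too, was the same on every coverslip and in 8 of 8 sections. Bcl11b was not called, however, when the 8 sections were the block of the fit in place of the coverslips.

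Sfrp2, the gene of a secreted protein that binds Wnt ligands, was at 0.904, 0.849, 1.25 and 1.70 counts per Sst-positive cell and at 0.652, 0.575, 0.746 and 0.930 per other GABA neuron. The difference of log2 0.72 ± 0.05 was only just past the threshold (edgeR adjusted p = 0.045). It was higher on 4 of 4 coverslips, but the call was lost without coverslip 3 (log2 0.68, adjusted p = 0.25) and without coverslip 4 (log2 0.67, adjusted p = 0.20). The neighbours of neither gate also held more Sfrp2 around Sst-positive cells (log2 0.62).

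**Figure D4:**
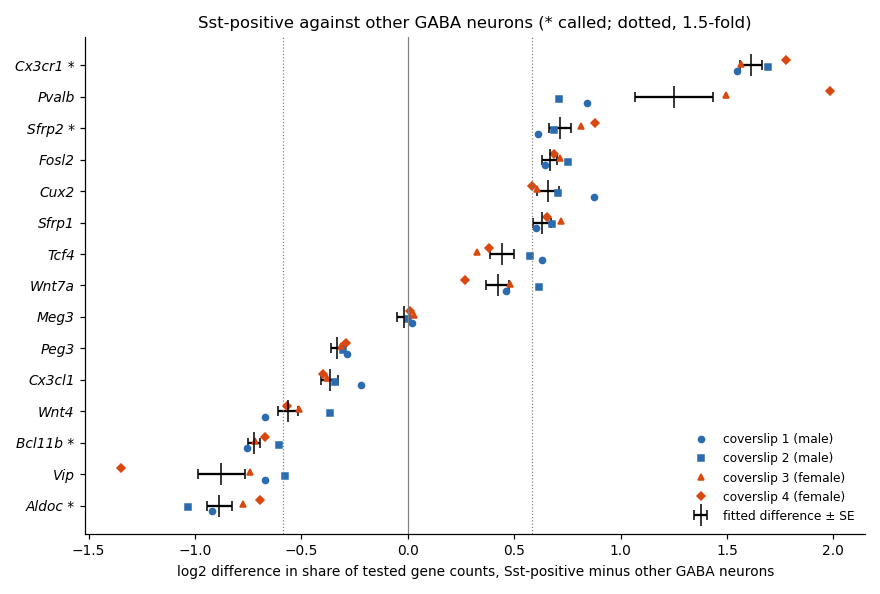
Differences between Sst-positive cells and other GABA neurons for 15 genes on a log2 scale of the share of tested counts (x axis). Black bars are the fitted difference with its SE and points are the 4 coverslips (blue male, orange female). An asterisk marks the 4 called genes and dotted lines the 1.5-fold threshold. Pvalb spreads from below 1 on the male coverslips to 1.98 on coverslip 4, while the points of Cx3cr1 lie between 1.55 and 1.78.

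A further 8 genes passed the test but lay below at least 1 blank on some coverslip, and they are given as values. Pvalb (log2 1.25 ± 0.18), the kinase gene Musk (1.43 ± 0.08), the adhesion gene Epcam (0.92), Csf1r (0.84), the Wnt5a receptor gene Ror2 (0.75) and the scaffold gene Slc9a3r1 (0.75) were higher. Vip, the marker of another interneuron class, was lower (-0.88 ± 0.11), as was the adrenergic receptor gene Adra2c (-0.85). Pvalb was at 0.189, 0.436, 0.608 and 1.22 counts per Sst-positive cell and at 0.116, 0.290, 0.226 and 0.310 per other GABA neuron. When packed cells were left out, its difference turned to log2 -0.08 (adjusted p = 1.00). That of Vip was log2 -0.86 there (adjusted p = 3.7e-06).

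The panel was built around Wnt signalling, in which secreted ligands bind frizzled receptors and co-receptors and act on β-catenin or other effectors, while secreted antagonists and cell-surface glypicans shape the ligand's reach. The members of these lists did not move together. Over the whole panel 2.94% of the genes were called, and members below the blanks in both gates could not be. Among the ligands and secretion genes, 0 of 19 tested were called, with a median log2 of 0.03, and Wnt7a alone lay above every blank (log2 0.42 ± 0.05, adjusted p = 1.00). Among the receptors and co-receptors, 0 of 19 were called (median 0.05), and those above every blank were Fzd3 (0.11 ± 0.04), Ryk (-0.09 ± 0.04) and Ptk7 (0.06 ± 0.04). Of the 14 tested genes of the pathway inside the cell, 0 were called (median -0.04), and the largest difference among the abundant ones was that of Ctnnb1, the gene of β-catenin (log2 -0.40 ± 0.04, adjusted p = 1.00). Among 7 antagonists, Sfrp2 was called, and Sfrp1 was at log2 0.63 ± 0.04 without passing (adjusted p = 0.42). Of 10 glypicans and syndecans 0 were called (median -0.04), and Sdc3 and Gpc1, the most counted of them at 15.3 and 10.2 per Sst-positive cell, differed by log2 0.11 and 0.06.

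Of the neuronal genes outside the Wnt lists, some were close between the gates and others were not. Meg3, a noncoding RNA abundant in neurons, was at 146 ± 34.2 counts per Sst-positive cell and 152 ± 29.3 per other GABA neuron (log2 -0.02 ± 0.03). The inhibitory-synapse gene Nlgn2 was at 11.5 ± 1.89 and 12.3 ± 1.58 (log2 -0.05 ± 0.03). Cx3cl1 was at 5.88 ± 1.25 and 7.86 ± 1.67 counts per cell (log2 -0.37 ± 0.04, adjusted p = 1.00). On each coverslip 1 section had 0.157 to 0.269 Cx3cl1 counts per Sst-positive cell and the other had 7.58 to 13.4. The direction between gates was the same in only 5 of 8 sections. The low sections lay below the highest blank, which was at 0.619 to 0.694 per Sst-positive cell over coverslips. Their values were 0.157, 0.204, 0.195 and 0.269 per Sst-positive cell and 0.181, 0.188, 0.183 and 0.267 per other GABA neuron. In the high sections of coverslips 1 to 4, Sst-positive cells held 10.5, 7.58, 12.4 and 13.4 counts per cell. Other GABA neurons there held more, at 12.8, 8.82, 14.4 and 15.2. Cux2 was at 3.89 ± 0.912 and 2.57 ± 0.679 (log2 0.66 ± 0.05, adjusted p = 0.23) and Fosl2 at 1.42 ± 0.420 and 0.921 ± 0.237 (log2 0.67 ± 0.04, adjusted p = 0.067). Neither was called as tested, but both lay near the threshold. Fosl2 was called with library totals in place of TMM scaling (log2 0.70, adjusted p = 0.013), with an Sst minimum of 20 (0.76), with low-signal squares left out (0.67), with no Slc1a3 limit on the other GABA neurons (0.73) and against other GABA neurons low in Bcl11b and Vip (1.63). Cux2 was called without coverslip 4 (log2 0.70, adjusted p = 0.024). Both were called when tested against no change. Of the other lists, 0 of 2 survival genes, 0 of 6 neuron and synapse genes, 0 of 4 markers of glutamatergic neurons and 0 of 4 markers of astrocytes were called. Nor were any of the 3 markers each of oligodendrocyte precursors and of endothelial and mural cells, or of the 2 of border macrophages. Over all 136 genes 2.94% were called. None of the survival, precursor, endothelial and mural or border macrophage genes cleared the blanks on every coverslip in either gate, so none could be called. The same held for 3 of the 4 astrocyte and 2 of the 4 glutamatergic markers. Of 4 cortical layer genes, Bcl11b alone was called. The summed astrocyte markers were at 2.03 to 3.32 counts per Sst-positive cell and at 2.06 to 3.38 per other GABA neuron.

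The calls depended on which cells stood on either side. Each Sst-positive cell was set against the nearest of the other GABA neurons, at a median distance of 37.3 coordinate units on coverslip 1, to compare cells of the same place. Only Cx3cr1 was then called. Aldoc fell to log2 -0.23, Bcl11b to -0.34 and Sfrp2 to 0.24 (adjusted p = 1.00 each). Against these nearest cells the Vip difference was -1.12 and that of Wif1, a secreted Wnt inhibitor gene, -1.09, both below the blanks. With packed cells left out, 4 genes were called higher (2.94%), namely Cx3cr1 (log2 1.58), Fosl2 (0.90), Cux2 (0.81) and Tcf4 (0.70), and only Aldoc was called lower (0.735%, log2 -0.86), together 3.68% of the panel. Sfrp2 (0.60) and Bcl11b (-0.54) then lost their calls (adjusted p = 1.00 each). Fosl2, Cux2 and Tcf4 are among the genes lower in packed cells, a class set after the map had been seen. Leaving packed cells out of the Sst-positive gate alone therefore raises these genes by construction. With the other GABA neurons among packed cells left out too, Cx3cr1 (log2 1.59), Fosl2 (0.89) and Cux2 (0.80) were called higher, and Tcf4 was not.

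Cx3cr1 was the gene that differed most. It encodes the receptor for fractalkine and in brain tissue is known from microglia. It was at 0.746, 0.657, 0.764 and 1.14 counts per Sst-positive cell on coverslips 1 to 4 and at 0.281, 0.221, 0.272 and 0.33 per other GABA neuron. The difference was 3.06-fold (log2 1.61 ± 0.05, edgeR adjusted p = 9.2e-08), with the same direction in 8 of 8 sections. When the 8 sections were counted apart, its level per Sst-positive cell was above every blank in 7 of them. Cells with at least 5 Csf1r counts and fewer than 3 of Gad1 held 11.9 ± 1.18 per cell. The other microglial markers did not show a difference of this size. P2ry12 was at 0.136 ± 0.0268 and 0.133 ± 0.0281 counts per cell in the 2 gates, C1qa at 0.273 ± 0.0196 and 0.255 ± 0.0326, Tmem119 at 0.103 ± 0.0141 and 0.108 ± 0.0155, and Itgam at 0.132 ± 0.0403 and 0.123 ± 0.0426. Csf1r was at 0.270 ± 0.10 and 0.156 ± 0.0611. Of the 6 microglial markers, Cx3cr1 alone lay above the blanks and 1 of 6 was called, against 2.94% of all 136 genes. The other 5 did not clear the blanks on every coverslip in either gate and could not be called. The summed level of the 6 markers was 1.42 to 2.25 per Sst-positive cell and 0.830 to 1.22 per other GABA neuron, and none was at 0.

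Some blank barcodes were higher in the Sst-positive cells as well. Blank-22 was 6.94-fold, Blank-38 4.23-fold, Blank-23 2.67-fold and Blank-0 1.81-fold higher per cell than in the other GABA neurons, each by more than 1.5-fold on 4 of 4 coverslips. The other 36 blanks lay at or below 1.28-fold, and the median of all 40 was 1.00. The same features followed the Sst count from cell to cell. From cells with 10 to 19 Sst counts to cells with 80 or more, the tested total rose 1.32-fold. Cx3cr1 rose 3.78 ± 0.24-fold (SD, n = 4), from 0.450 to 1.71 counts per cell, Blank-22 rose 4.80-fold and Blank-38 3.87-fold. Epcam rose 2.69-fold, Musk 2.56-fold and Csf1r 1.82-fold. P2ry12 rose 1.12-fold and C1qa 1.33-fold, close to the tested total. What part false decoding has in the Cx3cr1 level was not tested.

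**Figure D5:**
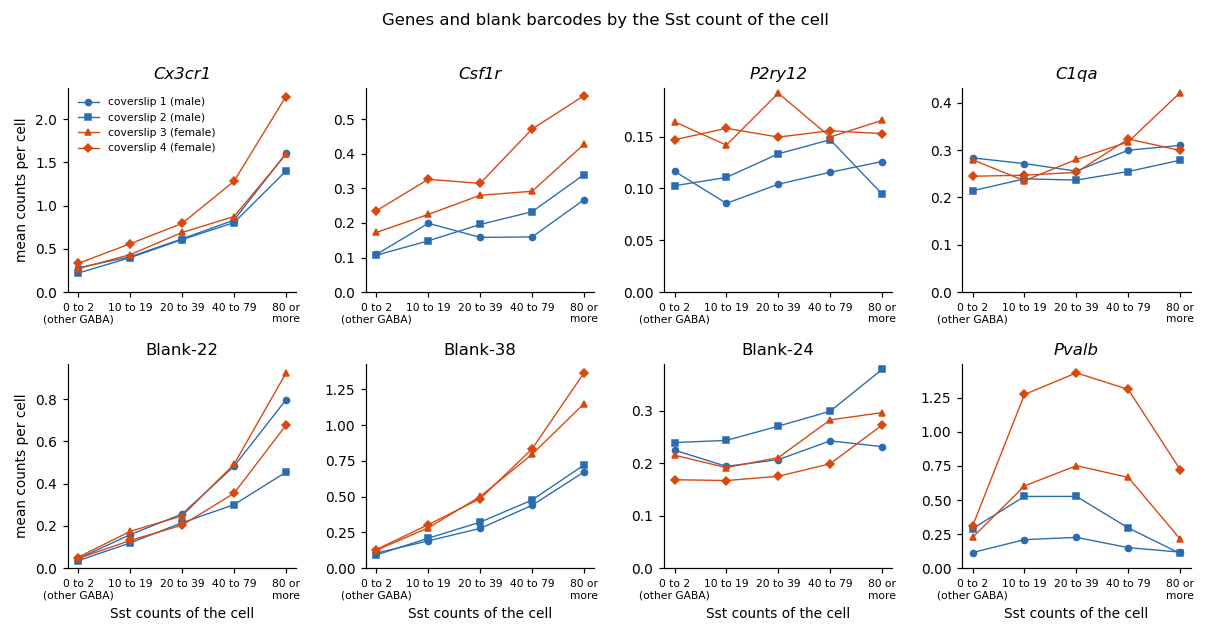
Mean counts per cell (y axis) of 5 genes and 3 blank barcodes in cells grouped by their Sst count (x axis), for the 4 coverslips (blue male, orange female). The first group is the other GABA neurons with 0 to 2 Sst counts. Cx3cr1, Blank-22 and Blank-38 rise through every group on each coverslip, P2ry12 does not, and Pvalb is lower at 80 or more Sst counts than at 20 to 39.

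Over the 157990 kept cells with at least 3 Gad1 counts and at most 2 of Slc1a3, the 5 panel genes most like Sst were Cx3cr1 (mean r = 0.21 over the coverslips), Pvalb (0.14), Gad1 (0.13), Ror2 (0.11) and Cux2 (0.11). These are correlations of log2 counts per 1000 across cells that share libraries and depth, and all are weak. Pvalb peaked at moderate Sst. Its mean was 0.653 counts per cell at 10 to 19 Sst counts, 0.734 at 20 to 39 and 0.291 at 80 or more.

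Among the Sst-positive cells, those with striatal-rich surroundings differed from those with Cux2-rich surroundings in 6 genes, and those with deep-layer-rich surroundings in 2. These fits used 132 genes, since Cux2, Syt6, Bcl11b and Slc17a6 had set the classes. In striatal-rich surroundings 2.27% (3 genes) were called higher and 2.27% (3 genes) lower, 4.55% in all. Sfrp2 was at 1.06, 0.736, 1.60 and 1.30 per 1000 on coverslips 1 to 4 with striatal-rich surroundings and at 7.76, 4.21, 6.41 and 6.11 with Cux2-rich surroundings, 4.59-fold lower (log2 -2.20 ± 0.20). Gpc5, a glypican gene, was at 0.623, 0.973, 1.28 and 1.10 against 6.77, 3.30, 5.13 and 4.40 (log2 -2.06 ± 0.23). Tcf4 was 1.12 ± 0.282 against 2.96 ± 0.754 (log2 -1.21 ± 0.18). All 3 were lower with striatal-rich than with Cux2-rich surroundings on each coverslip.

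The 3 genes called higher with striatal-rich surroundings were Cldn5, Sfrp1 and Aldoc. Sfrp1, a paralogue of Sfrp2, was at 5.61, 4.58, 5.48 and 4.14 per 1000 against 2.58, 2.38, 2.55 and 2.43 (log2 1.14 ± 0.16). The 2 antagonist genes thus ran in opposite directions between these classes. Aldoc was 5.33 ± 1.87 against 2.70 ± 1.18 (log2 1.13 ± 0.18). Cldn5, a tight-junction gene of endothelial cells, was 2.04 ± 0.631 against 0.846 ± 0.236 (log2 1.42 ± 0.27). The other 2 endothelial and mural markers did not pass, with Pecam1 at log2 0.24 and Pdgfrb at -0.23. The summed level of the 3 was 2.99 to 4.39 per 1000 against 2.29 to 3.16, and Cldn5 was log2 0.40 higher in the neighbours of neither gate. The part of vessel RNA in the Cldn5 level was not tested. Without coverslip 1 Cldn5 was not called (log2 1.27, adjusted p = 0.097). Without coverslip 3 none of the 3 higher genes was called, and Tcf4 was not called either (log2 -1.12, adjusted p = 0.073). With packed cells left out all 6 were called, and Ror2 was called lower in addition (log2 -1.33, with 3.03% lower and 5.3% called in all).

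With deep-layer-rich surroundings, 0.0% were called higher and 1.52% (2 genes) lower than with Cux2-rich surroundings, while 7 genes in all had an unadjusted p under 0.05 in edgeR. Gpc5 was at 2.08, 1.68, 1.40 and 1.91 per 1000 against 6.77, 3.30, 5.13 and 4.40 (log2 -1.38 ± 0.21, adjusted p = 0.023). Sfrp2 was at 2.43, 2.03, 2.40 and 3.48 against 7.76, 4.21, 6.41 and 6.11 (log2 -1.17 ± 0.17, adjusted p = 0.029). Both were lower on 4 of 4 coverslips and remained called with packed cells left out (log2 -1.71 and -1.43). The neighbours of neither gate showed the same direction (log2 -0.77 and -0.86). Neither gene was called without coverslip 3 or without coverslip 4, and without coverslip 1 only Gpc5 was. Fosl2 was higher with deep-layer-rich surroundings on 4 of 4 coverslips without passing the test (7.98 ± 1.14 against 4.25 ± 0.759, log2 0.98, adjusted p = 0.22).

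With Slc17a6-rich surroundings, 0.0% were called in either direction, by edgeR or by DESeq2, while 6 genes had an unadjusted p under 0.05 in edgeR. The Slc17a6-rich class held 67 to 245 Sst-positive cells per coverslip. Tcf7l2, a Wnt effector and transcription factor gene of the thalamus, was at 1.45, 0.916, 1.52 and 5.43 per 1000 against 0.268, 0.301, 0.598 and 0.754 (log2 2.32 ± 0.29, adjusted p = 0.00076), but it did not clear the blanks on every coverslip. Its level in the neighbours of neither gate differed by log2 2.80. With packed cells left out, Fosl2 (log2 -1.42) and Sfrp2 (log2 -1.20) were called lower (1.52%).

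Between sexes, 0.0% of the 136 genes were called in the Sst-positive cells (edgeR, 2 female against 2 male coverslips). At an unadjusted p under 0.05 there were 21, and DESeq2 called 0. The female and male coverslips did not overlap for 37.5% of all genes. Pvalb was at 0.687 and 1.51 per 1000 on the male and at 1.70 and 2.77 on the female coverslips (log2 1.06 ± 0.23, adjusted p = 0.0031), below the blanks, and with packed cells left out it was at log2 0.09 (adjusted p = 0.91). Nfatc1, a calcium-regulated transcription factor gene also below the blanks, was at 1.22 and 0.857 on the male and at 0.692 and 0.325 on the female coverslips (log2 -1.01 ± 0.23). With packed cells left out Psmb4, a proteasome subunit gene, was called higher on female coverslips (log2 0.64, adjusted p = 0.043, 0.735%). Without coverslip 3, which leaves 1 female coverslip that is assumed to vary like the others, Gpc3, Rorb, Aldoc, Aldh1l1, Psmb4 and Pvalb were called higher and Wnt16 lower. Sex differences that were unlike those of the other GABA neurons were tested as an interaction, which called 0.0% of the genes in either direction, with 15 at an unadjusted p under 0.05 and 0 by DESeq2. With 2 coverslips of each sex, and coverslip 4 the deepest, sex cannot be told apart from depth or from the plane of section.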

How the data were processed

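The deposited tables list segmented cells with counts of 140 genes and 40 blank barcodes, which per the file headers and values are whole raw counts. Volume and centre coordinates are deposited beside them as other values whose unit the file headers do not give. Decoding and segmentation software is not given in the sources used here. Per the labels, each coverslip pools 1 wild-type and 1 Cx3cl1(-/-) section, and it was the replicate. Nothing says more of how the samples were cultured or drawn, so p-values measure the spread between these coverslips. The members and gene lists were chosen with earlier results of these data known, and the packed class and the alternatives that use it, as well as the fit by sections, were chosen after seeing the data.

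Counts were summed per coverslip and gate over 136 genes and tested with edgeR 4.0.16 in R 4.3.3 (quasi-likelihood fit, TMM scaling, coverslip as a block, Benjamini-Hochberg adjustment). Comparisons of gates and of surroundings were tested against a 1.5-fold difference, and sex against no difference. A gene counted as called at an adjusted p under 0.05 if its level per cell was above all 40 blanks on every coverslip in the higher group. Kept cells held 33328342, 37768642, 44835350 and 76522968 gene counts on coverslips 1 to 4. On simulated counts of the gate comparison over 136 genes, 20 of 20 genes changed by 2-fold were recovered and 0 of 116 others were called. All genes were drawn with 1 common dispersion (0.0034), and none was changed by a size between 1.5-fold and 2-fold. The simulation therefore cannot show how the fit handles differences near 1.5-fold or genes that vary more. Alternatives were DESeq2 1.42.0, other scalings, thresholds, gates and minimums, and leaving out each coverslip. Text names called genes of constant direction, up to 10 each way, and members of the lists. Sections were separated by gaps between occupied squares and labelled by position alone. Python 3.11.15 with numpy 2.4.6, pandas 2.3.3, scipy 1.17.1 and matplotlib 3.10.9 was used.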

Additional observations from a re-analysis of the deposited data

Results flagged for a closer look

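Of the 40 blank barcodes, 4 were higher in Sst-positive cells than in the other GABA neurons by more than 1.5-fold on every coverslip, although blanks match no probe. The differences were 6.94-fold for Blank-22, 4.23-fold for Blank-38, 2.67-fold for Blank-23 and 1.81-fold for Blank-0. All 4 also rose with the Sst count of a cell, by 4.80-fold, 3.87-fold, 3.17-fold and 2.50-fold from 10 to 19 counts to 80 or more, while Cx3cr1 rose 3.78-fold. Their part in the Cx3cr1 level was not tested.

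The difference between the gates was unlike on female and male coverslips for 5 genes by edgeR's interaction term, all of them below at least 1 blank. The female difference exceeded the male one by log2 1.01 for Pvalb, 0.59 for Wnt6, 0.54 for Fzd7 and 0.47 for Gpc3, and lay below it for Wif1 (log2 -0.40). With packed cells left out, 0 of the 136 genes passed this test, and the Pvalb value was log2 0.12 (adjusted p = 0.86). Packed cells made up 11.5% and 19.2% of the Sst-positive cells on the male and 20.3% and 27.0% on the female coverslips.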

How the results depend on the processing

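The gates and the classes of surroundings were compared within coverslips, with the coverslip as a block. For the comparison of sexes, no paired analysis was possible because replicate numbers only name the coverslips, and the female and male coverslips are different ones. The number of genes called higher in Sst-positive cells than in other GABA neurons (2 as reported) was 1 with DESeq2, with a 2-fold threshold, with no coverslip block, against the nearest comparators and with Gad1 of at least 10 in both gates. It was 10 when tested against no change, 8 without the rule on blanks, 0 with the 8 sections as the block and 4 with packed cells left out. The number lower (2) was 13 against no change, 4 without the rule on blanks, and 0 with a 2-fold threshold, with no coverslip block or against the nearest comparators. It was 1 with sections as the block, or with packed cells left out with or without the comparators among them. It was also 1 against comparators with low Bcl11b and Vip, where these 2 genes were not tested, so Bcl11b could not be counted. With sections as the block Cx3cr1 lost its call to the blanks of 1 section, at log2 1.59. Only Aldoc was called in that fit (log2 -0.87), so Bcl11b and Sfrp2 lost their calls as well. The Pvalb difference was reversed to log2 -0.0756 with packed cells left out. Leaving out each coverslip in turn gave 1 to 2 genes higher and 2 to 2 lower.

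Between sexes (0 either way), 5 genes were higher with cell volume as an offset, which moved the median of all genes to log2 0.43, 1 higher and 3 lower without the rule on blanks, and 1 higher with packed cells left out. Leaving out 1 coverslip gave 0 to 6 higher and 0 to 1 lower. The interaction had 3 higher with the volume offset.

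For surroundings against the Cux2-rich class, testing against no change gave 5 higher for the deep-layer-rich class (0 as reported), 11 higher (3) and 6 lower (3) for the striatal-rich class, and 3 higher (0) and 4 lower (0) for the Slc17a6-rich class. DESeq2 called 1 lower in the deep-layer-rich class (2) and 1 higher in the striatal-rich class, as did totals without TMM factors, which moved the median of all genes there to log2 -0.15. A minimum of 10 of 30 cells gave 5 lower in the striatal-rich class, and 4 higher and 2 lower in the Slc17a6-rich class, where leaving out packed cells gave 2 lower. Leaving out each coverslip gave 0 to 2 lower for the deep-layer-rich class, and 0 to 3 higher and 2 to 4 lower for the striatal-rich class. The mean share of Sst-positive cells (1.92%) was 2.60% with an Sst minimum of 5 and 1.30% with 20, and 1.68% to 2.04% leaving out each coverslip. The cause of these changes was not tested. Of the 136 genes, 44 lay above every blank in Sst-positive cells on all 4 coverslips.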
